A study of Mus musculus with 4 samples.

Results

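The secreted Wnt antagonists were described here through 8 genes: Sfrp1, Sfrp2, Sfrp4, Sfrp5, Frzb, Dkk2, Dkk3 and Wif1. They were taken by symbol from GEO's platform annotation of the array, using probe sets with exactly 1 gene symbol and, per gene, the probe set with the highest mean over all 4 arrays. All 8 had a probe set, among 22180 genes measured in this way. Sfrp2 had 2 probe sets and each other gene had 1. The study measured hindlimb tendon of untreated wild-type C57Bl/6 mice, an inbred laboratory strain, aged 4 months, with 2 arrays from females and 2 arrays from males. Achilles and plantaris tendons were pooled within an animal before RNA isolation, and the labels give 3 RNA wells per sample. The labels do not say that the arrays of a sex came from separate animals, so a p-value here covers the spread between samples alone, and that spread may be technical. Tenocytes, the resident cells of tendon, are given as the cell type, but whole tendon was homogenised and all of its cells could contribute RNA.

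Wnt proteins are secreted ligands that bind Frizzled receptors on the cell surface and, together with the co-receptors Lrp5 and Lrp6, keep beta-catenin from being degraded, so that it can act with Tcf and Lef factors on target genes. Secreted antagonists act outside the cell by different routes. The secreted Frizzled-related proteins, encoded by the Sfrp genes and Frzb, carry a cysteine-rich domain like that of the Frizzled receptors and can bind Wnts, as can Wif1 through a domain of its own. Dickkopf proteins such as Dkk2 bind the co-receptors, whereas Dkk3 is a divergent member of that family whose action on Wnt signalling is less settled.

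Values are log2 RMA values, an array summary in which a step of 1 is a doubling of signal. The table gives no call of detection, so the median of each array over all rows, between 2.266 and 2.303, was used as a mark of dim signal. The labelled tissue carried its markers: 12 of 12 tendon marker genes had means above these medians, among them the tendon transcription factor gene Scx, between 3.18 and 3.58, and Tnmd, a late tendon marker, between 4.39 and 5.06. All 16 of 16 skeletal muscle markers were also above them, with a median between 9.53 and 10.1 per array. Across all 41345 rows, pairs of arrays correlated at r between 0.9169 and 0.9474, and the highest value was for female 1 with male 2, not for arrays of 1 sex.

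The antagonists differed widely in signal. Sfrp4 gave the strongest signal of the 8 on every array. Dkk2, Dkk3, Wif1 and Sfrp2 formed a middle group, well above the array medians on all 4 arrays. The other probe set of Sfrp2 (17398557) was dimmer, between 2.32 and 2.99. Sfrp1, Sfrp5 and Frzb lay around or below the medians. Probe sets differ in how strongly they bind their target, so the order of signals is not an order of transcript abundance, and the differences of level given between genes here are differences of log2 signal.

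Sfrp4 (probe set 17285546, gene at chr13:19623175-19632825 in GRCm38.p6), whose loss thins cortical bone in humans, was at 6.14 and 6.88 in females 1 and 2, against 4.95 and 6.24 in males 1 and 2. Its signal exceeded that of between 89.1% and 97.0% of all genes on an array. Only male 1 stood low, and the lower female value lay below male 2, so the groups overlapped. Dkk2 (probe set 17402698, chr3:132085266-132180304), the co-receptor antagonist, was at 3.70 and 3.92 in females, against 3.88 and 4.38 in males. Male 2 was highest for Dkk2 and the other arrays lay close together. Dkk3 (probe set 17495191, chr7:112116019-112159482) was at 3.96 and 4.16 in females, against 4.11 and 3.53 in males, with male 2 as the low array.

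Wif1 (probe set 17237701, chr10:121034004-121100642), which encodes the Wnt inhibitory factor, was at 3.31 and 4.0 in females, against 3.92 and 3.04 in males. Each sex thus had a high and a low array for Wif1, and the spread within a sex was larger than the difference between the sexes. Sfrp2 (probe set 17406275, chr3:83765750-83774314), made by fibroblasts of many connective tissues, was at 3.24 and 3.32 in females, against 3.70 and 3.90 in males. Both female arrays lay below both male arrays for Sfrp2, and the arrays of each sex lay close together.

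Sfrp1 (probe set 17500068, chr8:23411383-23449632) was at 2.14 and 2.52 in females, against 2.81 and 2.70 in males, and exceeded the median of its array on 3 of 4 arrays. Sfrp5 (probe set 17364820, chr19:42197971-42202252), a close relative of Sfrp1, was at 1.90 and 2.26 in females, against 2.30 and 2.78 in males, and exceeded it on 1 array, male 2. For Sfrp1 and Sfrp5 the female arrays lay below the male arrays, but the female values were near or under the array medians. Frzb (probe set 17387305, chr2:80411970-80447396), also called Sfrp3 and known from cartilage, was at 1.77 and 2.15 in females, against 2.22 and 2.15 in males, below the array median on all 4 arrays. Signal at this level cannot be told from background, so no difference between the sexes is read from Frzb.

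**Figure D1:**
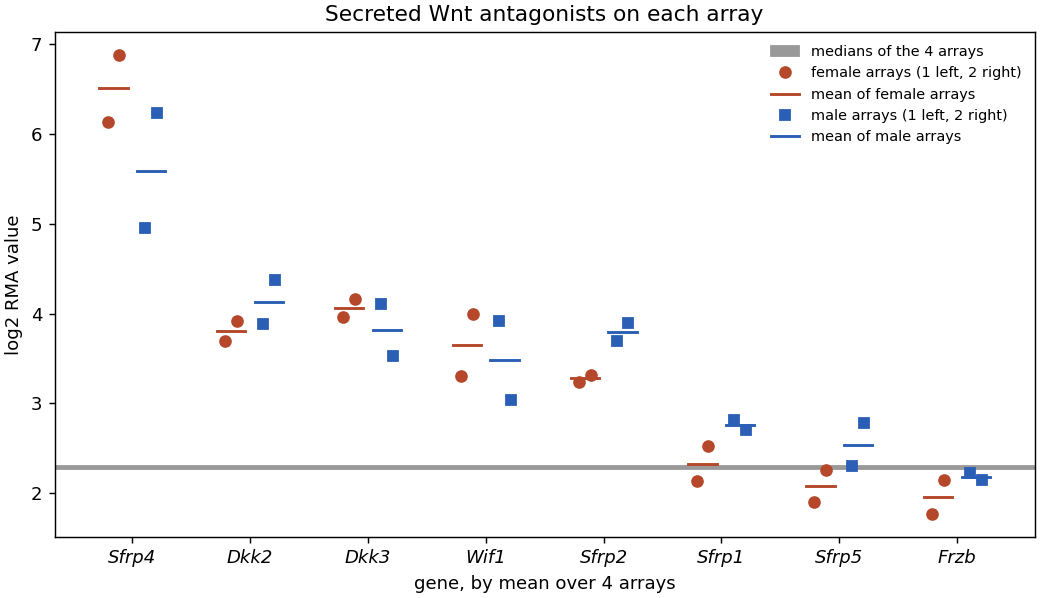
Log2 RMA value (y axis) of each of the 8 antagonist genes (x axis, ordered by mean over the 4 arrays), with 2 female arrays as circles, 2 male arrays as squares, their means as short bars and the medians of the 4 arrays as a grey band. Sfrp4 lies above every other gene, and all Frzb points lie below the band.

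Neighbours in the order of signal were compared within each array. Sfrp4 exceeded Dkk2, the next in order, on 4 of 4 arrays, by 2.08 ± 0.81 (SD over 4 arrays). Sfrp2 exceeded Sfrp1 on 4 of 4 arrays by 1.0 ± 0.18 (SD over 4 arrays), the steadiest step in the order. Steps with Sfrp2 use its probe set with the higher mean. The other (17398557) was at 2.43 and 2.63 in females, against 2.32 and 2.99 in males. In male 1 it lay below Sfrp1, which was at 2.81. Dkk3 exceeded Wif1 on 4 of 4 arrays by 0.37 ± 0.24 (SD over 4 arrays). The mean of each remaining step was no larger than its SD: Dkk2 over Dkk3 was 0.03 ± 0.55, with Dkk2 higher on 1 of 4 arrays, and Wif1 over Sfrp2 was 0.03 ± 0.64. Sfrp1 over Sfrp5 was 0.23 ± 0.24, and Sfrp5 over Frzb, although on 4 of 4 arrays, was 0.24 ± 0.27 (SD over 4 arrays each). Frzb lay below every array's median and Sfrp5 below 3 of 4, so this last step compares dim signals.

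The sexes were then compared, the question for which the series was made. None of the 8 antagonists passed limma's test for a difference between the sexes, with Benjamini-Hochberg adjustment over all 23521 probe sets with 1 symbol. Over all probe sets limma called 0 as well (0%), with 1056 (4.49%) at an unadjusted p under 0.05. Differences of more than 1, in 402 probe sets and as wide as 5.47, were not called either. The absence of a call therefore does not show equal signal in the sexes. The differences, female minus male, were negative in 5 members and positive in 3, with a median of -0.27 beside -0.01 over all genes.

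Sfrp2 averaged 3.28 ± 0.06 in females and 3.80 ± 0.14 in males (SD, n = 2 each), a difference of -0.52 (SE 0.16, 95% interval -0.94 to -0.10) or 0.697-fold. In limma's fit across all probe sets its unadjusted p was 0.0252 and its adjusted p = 0.969. Sfrp2 was the only member with an unadjusted p under 0.05 in either direction, 1 of 8 (12.5%). Of all probe sets 4.49% were under 0.05 in either direction, and 1.85% with a lower female mean. A share that rests on 1 gene shows no enrichment. The other probe set of Sfrp2 (17398557) did not show this: it was at 2.43 and 2.63 in females, against 2.32 and 2.99 in males, a difference of -0.12 (SE 0.27, 95% interval -0.86 to 0.61). With the mean of both probe sets the Sfrp2 difference was -0.32 (limma adjusted p = 0.969).

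Sfrp4 averaged 6.51 ± 0.53 in females and 5.59 ± 0.91 in males (SD, n = 2 each). The difference of 0.92 was the widest of the 8, 1.89-fold, but its 95% interval reached from -0.47 to 2.31, or 0.72-fold to 4.95-fold (limma adjusted p = 0.969). Without male 1 the difference was 0.27. Sfrp1 differed by -0.43 (SE 0.19, 95% interval -0.94 to 0.09) and Sfrp5 by -0.46 (SE 0.25, 95% interval -1.12 to 0.20), both with a female mean near or under the array medians.

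Dkk2 differed by -0.32 (95% interval -0.94 to 0.30), Dkk3 by 0.24 (95% interval -0.42 to 0.91) and Wif1 by 0.17 (95% interval -0.90 to 1.25). These intervals leave room for a change of signal toward either sex. Without male 2 the Dkk2 difference was -0.07. The value for Frzb was -0.22 (95% interval -0.73 to 0.29). Both female arrays lay below both male arrays in 3 of 8 members, Sfrp1, Sfrp2 and Sfrp5 (37.5%, beside 17.5% of all probe sets), and above them in 0 members (beside 15.8% of all probe sets, and 33.3% for either direction). With 2 arrays against 2, an exact permutation test of a single gene cannot give a two-sided p below 0.333.

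**Figure D2:**
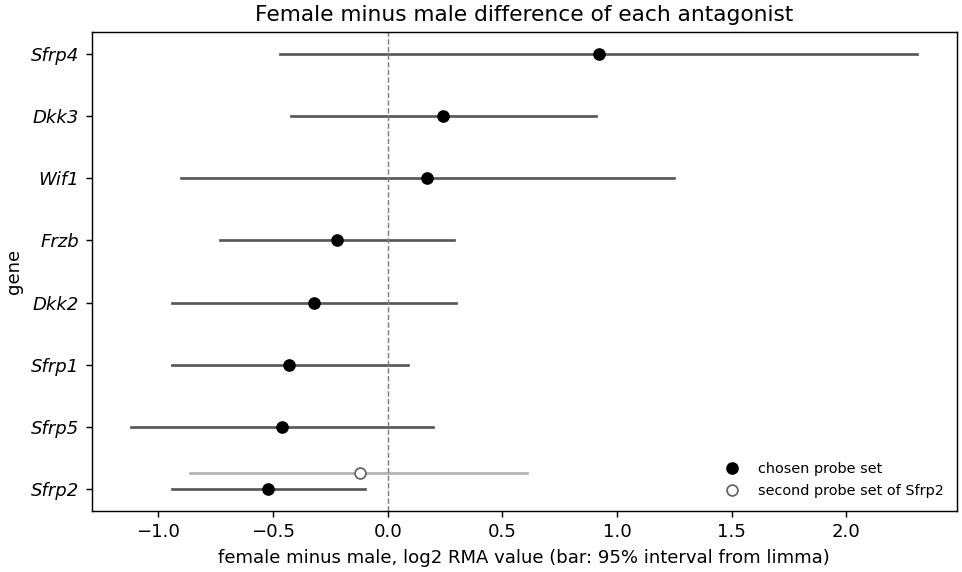
Female minus male difference in log2 RMA value (x axis) for each antagonist gene (y axis), with points for the limma estimate and bars for its 95% interval; the open point is the second probe set of Sfrp2. Only the interval of the chosen Sfrp2 probe set stays below 0 (-0.94 to -0.10), before any adjustment for the number of probe sets.

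The members did not follow a common course over the arrays. Sfrp4 had the widest range over the 4 arrays, 1.93, which exceeded that of 94.2% of the 790 genes within 0.5 of its level. Its deviation from its own mean was -1.10 in male 1 and 0.83 in female 2. Wif1 spanned 0.96, which exceeded 72.0% of the 3321 genes of like level. Sfrp5 spanned 0.89, which exceeded 93.1% of the 8591 genes of like level, but its signal was above the array median on 1 array alone. The other 5 spanned between 0.45 and 0.68. Sfrp1, Sfrp2, Sfrp5, Frzb and Dkk2 all had their lowest value in female 1, whereas Dkk3 and Wif1 were lowest in male 2 and highest in female 2.

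After each gene was centred on its mean, Sfrp5 and Dkk2 were the closest pair of members, with a root mean square difference of 0.09 over the 4 arrays, followed by Sfrp1 and Frzb at 0.10, but both pairs hold a member of dim signal. Among members above the array medians on all 4 arrays the closest were Sfrp2 and Dkk2 at 0.16 and Dkk3 and Wif1 at 0.21. The farthest pairs, at 0.85, were Sfrp4 with Sfrp2 and Sfrp4 with Wif1. Genes with a mean above the highest array median were compared, leaving out predicted genes, microRNAs, small nucleolar RNAs and olfactory or vomeronasal receptors. Among these 11271 genes, the nearest to Sfrp4 in centred values was Snrpd1, a splicing factor gene (root mean square difference 0.076). Next were the syndecan gene Sdc3 (0.088) and Adipoq, the gene of the adipocyte hormone adiponectin (0.09). Nearest to Wif1 were Pcdhga10 (0.029), Lrrc61 (0.034) and Dmtf1 (0.04), and nearest to Sfrp5 were Jade2 (0.0055), Slc11a2 (0.022) and Sec22c (0.029). With 4 arrays and so many genes, close matches of this kind arise easily, and they are given as a description.

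Sequence upstream of Dkk2 and Wif1 is shown, 1 from each of these brighter pairs, because RefSeq lists a start for it whose upstream bases lie outside the annotated gene. RefSeq's GRCm38.p6 promoter table held 5 of the 8 members. Sfrp1, Sfrp4 and Dkk3 were not among them. The Dkk2 stretch is chr3:132085042-132085265, the part of its window outside the gene, and the Wif1 stretch is chr10:121033754-121034003, both on the plus strand. Both are written 5′ to 3′, and capitals mark CG dinucleotides, the sites of DNA methylation.
Dkk2: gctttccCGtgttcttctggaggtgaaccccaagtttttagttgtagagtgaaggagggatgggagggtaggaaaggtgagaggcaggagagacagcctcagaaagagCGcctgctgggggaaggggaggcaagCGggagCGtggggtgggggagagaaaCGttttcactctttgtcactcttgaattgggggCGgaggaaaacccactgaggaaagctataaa
Wif1: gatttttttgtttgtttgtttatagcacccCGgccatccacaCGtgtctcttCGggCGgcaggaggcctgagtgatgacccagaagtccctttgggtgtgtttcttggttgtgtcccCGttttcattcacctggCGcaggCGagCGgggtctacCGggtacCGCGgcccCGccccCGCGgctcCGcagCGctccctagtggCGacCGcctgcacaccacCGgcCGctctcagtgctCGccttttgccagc
In the full 250 bases before the start, Dkk2 held 7 CG dinucleotides, a count reached by 46.3% of 32851 such windows, and Wif1 held 21, reached by 16.3%, where the median was 6. The core of the Tcf and Lef binding motif, CTTTGA, or TCAAAG on the other strand, was found in 1 of the 5 member windows, that of Frzb, and in 13.8% of all windows. These matches describe the letters in the windows and were not tied to any value on the arrays.

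Because whole tendon was used, markers of other cell types were set beside the members, and fewer cells of a type cannot be told apart from less RNA per cell in such samples. Sfrp4 was lowest in male 1 and highest in female 2. Of 9 adipocyte markers measured of 10 listed, 8 were lowest in male 1 and 7 were highest in female 2, and the median deviation of the list was -0.76 in male 1 and 0.49 in female 2. The summed linear signal of the adipocyte markers was 1660 and 1860 in females, against 1200 and 1670 in males. Such sums are led by the brightest genes of a list, here Fabp4, at 10.4 and 10.5 in females, against 10.1 and 10.5 in males. Adipoq was at 5.86 and 6.67 in females, against 4.62 and 5.78 in males, and every measured adipocyte marker had a mean above the array medians. Endothelial markers were also lowest in male 1 in 8 of 9 genes, but 4 were highest in female 2, 4 in male 2 and 1 in male 1. Their summed signals were 239 and 298 in females, against 156 and 266 in males. Macrophage markers were lowest in male 1 in 7 of 12 genes and highest in female 2 in 11, with median deviations of -0.29 and 0.93. Their median deviation was also -0.29 in female 1 and -0.32 in male 2, so male 1 did not stand apart for this list. The part of any of these cell types in the Sfrp4 values was not tested.

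Dkk3 and Wif1 were lowest in male 2 and highest in female 2. Of 11 connective tissue fibroblast markers measured of 12 listed, 7 were lowest in male 2 and 9 were highest in female 2, with summed linear signals of 1970 and 2730 in females, against 2630 and 1760 in males. Macrophage markers were highest in female 2 in 11 of 12 genes measured of 13 listed but lowest in male 1 in 7 and in male 2 in 2, with summed signals of 468 and 1160 in females, against 599 and 505 in males. All measured markers of these 2 lists had means above the array medians. Of 5 Schwann cell markers measured of 8 listed, 3 were lowest in male 2 and 3 were highest in female 2. Of 10 cartilage and bone markers measured of 11 listed, 4 were lowest in male 2, 4 in female 1, and 5 were highest in female 2. Means were above the array medians for 4 of these Schwann cell markers and 8 of these cartilage and bone markers. The 5 members that were lowest in female 1 shared this with 6 of 12 tendon markers, whose summed signals were 2630 and 4620 in females, against 3940 and 3120 in males. Of those 12 markers, 7 were highest in female 2, 5 in male 1 and 0 in male 2. Sfrp1 and Frzb were highest in male 1, and Sfrp2, Sfrp5 and Dkk2 in male 2. Pericyte and smooth muscle markers were highest in male 2 in 5 of 9 genes but lowest in female 1 in 3. Skeletal muscle markers ran another way, with 12 of 16 lowest in female 2 and summed signals of 17200 and 11900 in females, against 17000 and 16500 in males. The part of these cell types in the values of the members was not tested.

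**Figure D3:**
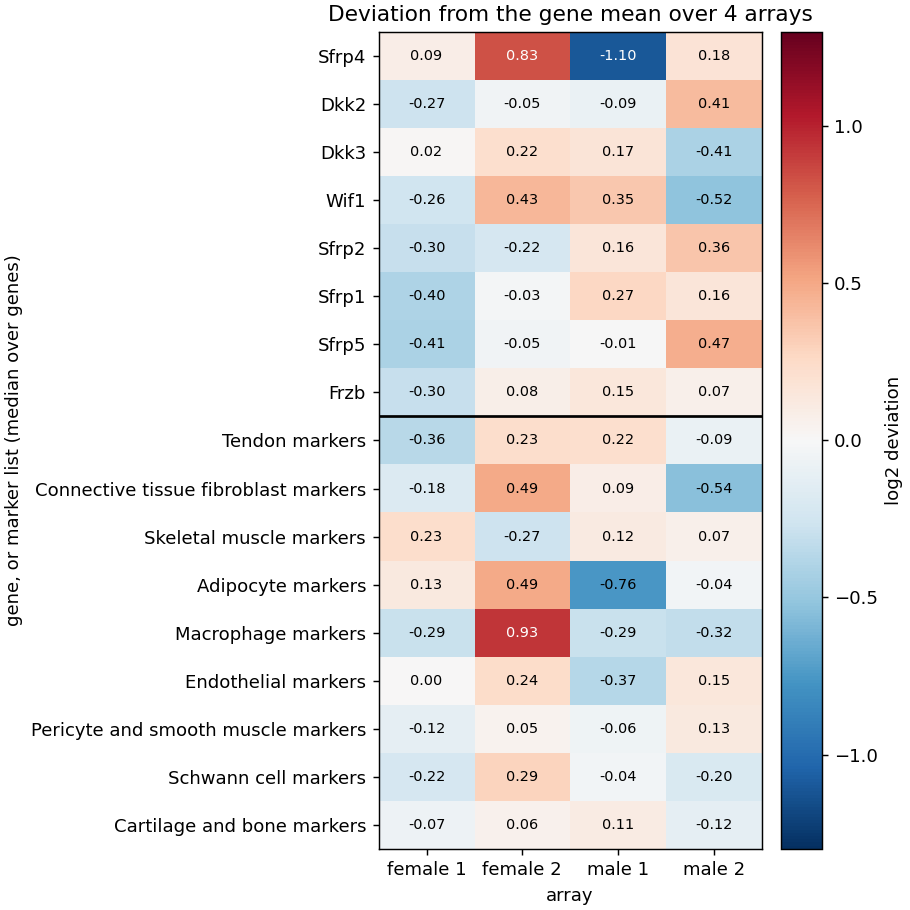
Deviation in log2 RMA value from the gene's mean over the 4 arrays, for each antagonist gene (rows above the line) and as the median over each marker list (rows below it), by array (columns); the number in each cell is the plotted value. Sfrp4 stands at -1.10 in male 1, where adipocyte markers stand at -0.76 and macrophage markers at -0.29. Macrophage markers also stand at -0.29 in female 1 and at -0.32 in male 2. In female 2 Sfrp4 stands at 0.83, adipocyte markers at 0.49 and macrophage markers at 0.93.

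The other genes of the Wnt pathway were compared to place the antagonists. None of them passed the test between the sexes: limma called 0 genes in each of the 6 lists, and of their 85 genes 6 (7.06%) had an unadjusted p under 0.05, where 4.49% of all probe sets did. All 19 Wnt ligand genes were measured, but 6 of them had a mean above the array medians, and the median difference, female minus male, was -0.09, or 0.08 among the probe sets above the array median on at least 2 arrays. Wnt2b was at 2.76 and 2.71 in females, against 2.32 and 2.16 in males, a difference of 0.50 (SE 0.15). Its mean exceeded the array medians through the female arrays alone, as male 1 lay just above its array median and male 2 below. Wnt9a was at 3.05 and 3.37 in females, against 2.80 and 2.81 in males. Wnt9b and Wnt4 differed by -0.30 (SE 0.16) and -0.27 (SE 0.24).

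Of 16 Frizzled receptor and co-receptor genes, 10 had a mean above the medians, 7 were higher in females and 9 lower. The median difference was -0.03, or 0.16 without male 2. Fzd9, a Frizzled receptor gene, had the lowest unadjusted p in these Wnt lists (0.00471 in limma's fit across all probe sets, adjusted p = 0.969). It was at 4.14 and 4.09 in females, against 3.21 and 3.40 in males, a difference of 0.81 (SE 0.15), and the female arrays lay above the male arrays. Fzd4 was at 5.84 and 5.93 in females, against 5.4 and 5.55 in males, and Lrp5, the gene of a co-receptor that Dkk2 binds, differed by 0.36 (SE 0.23). Ror2, an alternative Wnt receptor gene, differed by -0.22 (SE 0.18). Fzd8, with a mean below the highest array median, differed by -0.65 (SE 0.21).

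R-spondins strengthen Wnt signalling by keeping Frizzled receptors on the surface. Their list, with their receptors and the ubiquitin ligases Znrf3 and Rnf43, had a median difference of 0.15, with 6 of 9 genes higher in females and 8 of 9 above the array medians. That median was between -0.07 (without female 2) and 0.05 when each array was left out. Rspo2 was at 2.69 and 2.82 in females, against 2.01 and 2.32 in males, a difference of 0.59 (SE 0.18). Its mean exceeded the array medians through the female arrays alone, as male 1 lay below its array median and male 2 just above. Rspo3, Lgr5 and Lgr6 differed by 0.28 (SE 0.31), -0.27 (SE 0.18) and 0.24 (SE 0.26).

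A further 12 genes encode other secreted or surface inhibitors, and their median difference was 0.09, with 7 higher in females. Igfbp4, which encodes an IGF-binding protein that can also block Wnt receptors, was at 4.81 and 5.90 in females, against 4.17 and 4.50 in males, a difference of 1.02 (SE 0.41) that was 0.48 without female 2. Kremen1, which encodes a receptor for Dickkopf proteins, differed by 0.65 (SE 0.40), or 0.21 without female 1, with values of 5.08 and 4.21 in females, against 3.66 and 4.34 in males that overlapped them. Kremen2 differed by -0.24 (SE 0.17). Dkk1, the best known Dickkopf gene, was at 3.10 and 3.52 in females, against 3.59 and 3.41 in males.

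Of 20 genes measured of 22 listed for Wnt secretion and intracellular signalling, 10 were higher in females and 10 lower, with a median of 0.01. Tcf7l1, which encodes a Tcf factor that mostly represses target genes, was at 2.67 and 2.26 in females, against 4.10 and 3.23 in males, a difference of -1.2 (SE 0.35, limma adjusted p = 0.969). Ctnnb1, the gene of beta-catenin, was at 6.19 and 6.58 in females, against 5.91 and 5.97 in males. Wls, needed for Wnt secretion, differed by 0.31 (SE 0.19) and Apc, of the complex that degrades beta-catenin, by 0.30 (SE 0.16). Lef1 had a mean below the array medians, and Tcf7 and Gsk3a were not analysed here.

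Commonly used Wnt target genes, a list that shares Lef1, Lgr5, Rnf43, Znrf3, Notum and Apcdd1 with the others, had a median difference of 0.02, with 8 of 15 measured genes higher in females. Axin2, a feedback inhibitor often read as a sign of active Wnt signalling, was at 3.21 and 2.97 in females, against 2.76 and 2.75 in males, a difference of 0.33 (SE 0.16). Its other probe set (17271197) was at 2.66 and 2.37 in females, against 2.70 and 2.58 in males, a difference of -0.12 (SE 0.18), and with the mean of both the Axin2 difference was 0.11. Tnfrsf19 differed by 0.42 (SE 0.23), Ccn5 by 0.32 (SE 0.21) and Nkd2, another feedback inhibitor, by -0.33 (SE 0.15). None of these passed the threshold (limma adjusted p = 0.969 for each).

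**Figure D4:**
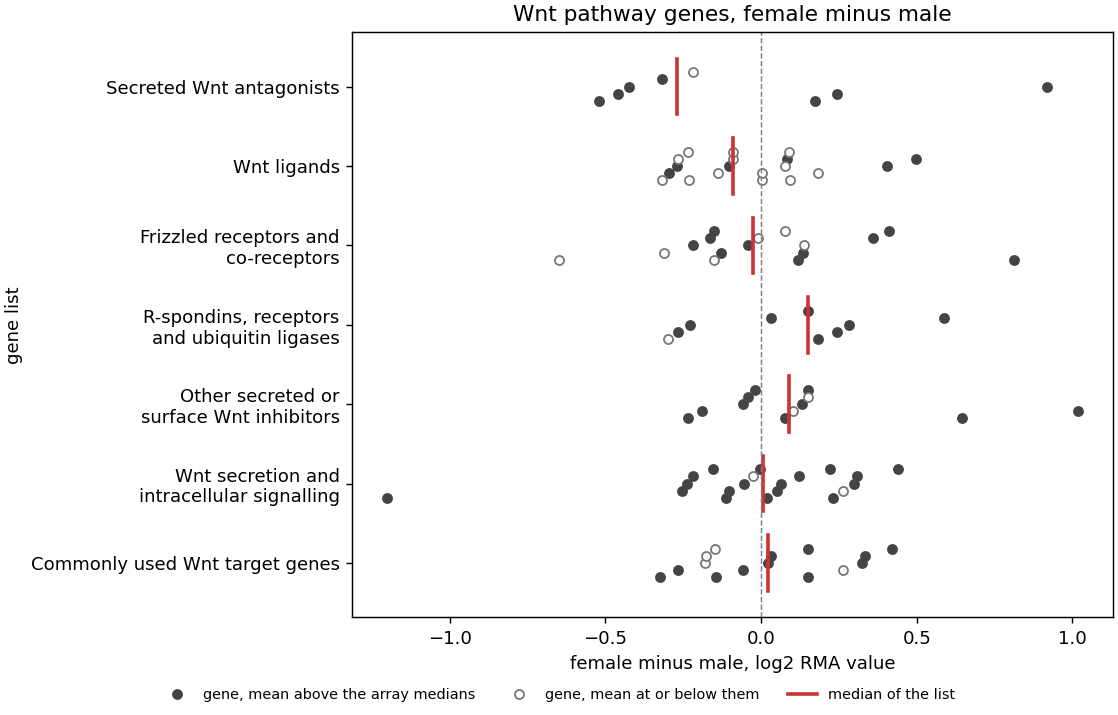
Female minus male difference in log2 RMA value (x axis) for each gene of the antagonist set and of 6 further Wnt pathway lists (y axis); filled points are genes with a mean above the array medians, open points are dimmer genes, and red bars are list medians. The list medians lie between -0.27 for the 8 antagonists and 0.15 for the R-spondin list, and the R-spondin median was between -0.07 and 0.05 with any 1 array left out.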

How the data were processed

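RNA of 2 female and 2 male tendon samples (12.5 ng of input) was hybridised to Mouse Gene ST 2.1 arrays, per the labels. The log2 values were deposited by the authors, 1 column per array; oligo and RMA are named per the submitters' processing notes, their versions, the summary level and the annotation build are not given in the sources used here. That the scale is log2 was taken from the values and from RMA. No further normalization was applied.

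GEO's platform annotation gave exactly 1 symbol to 23521 of 41345 probe sets, several to 1814 and none to 16010. Sex was the single term of a linear model fitted to these 23521 with limma 3.58.1 in R 4.3.3 (lmFit, eBayes), with Benjamini-Hochberg adjustment over all of them and a threshold of 0.05. Python 3.11.15 with matplotlib 3.10.9 drew the figures. Precision is limited by the number of arrays, and the SE of a difference had a median of 0.187. The comparison was also run on 20 simulated data sets over 23521 probe sets, with 200 changed in each. Noise was normal, with variances drawn from limma's fitted prior. The procedure called 0.1% of those changed by 1 on the log2 scale, 44.8% at 2, 80.3% at 3 and 88.9% at 4. In the deposited values 402 probe sets differed by more than 1, the widest by 5.47, yet limma called 0. The simulated shares may therefore not hold for these data.

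The members and lists were chosen with earlier results of these data known. Named beside the members were, per Wnt list, the 4 genes of widest difference among those with a mean above the highest array median, 5 pathway genes in any case, and the 3 genes nearest in course to each of the 3 members of widest range. Fzd8, which was dimmer, was named as well for its wide difference. Alternatives covered rows, filters, prior, normalization, weights of arrays, a block for the replicate number, probe sets per gene, the threshold and each array left out.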

Additional observations from a re-analysis of the deposited data

How the results depend on the processing

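Under 15 alternatives limma called 0 antagonist genes and 0 probe sets in all, with between 534 of 13176 probe sets (those with a mean above the highest array median) and 1870 of 41345 (all rows) at an unadjusted p under 0.05. The lowest adjusted p of a member under any of them was 0.744. The median member difference, -0.27, was -0.07 among the 6 members above the array median on at least 2 arrays, and lay between -0.42 and -0.12 when each array was left out. There, a single remaining array takes its spread from the opposite sex.

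Of 109 member values under alternatives, 106 kept their direction and 3 turned, for Wif1 and Dkk3. With each array left out, Wif1 lay between -0.26 and 0.61, Dkk3 between -0.04 and 0.53, Rspo3 between -0.01 and 0.57, Dkk1 between -0.40 and 0.02, Lgr6 between -0.09 and 0.57 and Wnt4 between -0.55 and 0.01; the cause was not tested. Sfrp4 lay between 0.27 and 1.56, Sfrp2 between -0.62 and -0.42, Sfrp1 between -0.61 and -0.24, Sfrp5 between -0.70 and -0.22, Dkk2 between -0.57 and -0.07 and Frzb between -0.41 and -0.03. Igfbp4 lay between 0.48 and 1.56, and Kremen1 between 0.21 and 1.08.

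Female and male samples share replicate numbers, but nothing in the labels says that a number pairs them, and deviations of same-numbered arrays correlated at -0.0639 over probe sets. With the replicate block limma called 0 probe sets, with 981 at an unadjusted p under 0.05, and 0 members. In that fit 2 of 8 members were under 0.05, Sfrp4 (limma unadjusted p = 0.0204) and Sfrp2 (0.0434). For Sfrp2, at 0.0252 in the main fit, limma's unadjusted p was 0.0963 with the trended and robust prior. It was 0.0641 among probe sets with a mean above the highest array median, and 0.0152 with quantile normalization once more. Array weights came out between 0.997 and 1, so that alternative changed little.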

Other observations

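Within each array, Sfrp4 minus Sfrp2 was 2.90 and 3.56 in females 1 and 2, against 1.25 and 2.34 in males 1 and 2. The pair was chosen after the values were seen, as the members with the widest differences in opposite directions, so no test is given. These gaps use the Sfrp2 probe set with the higher mean.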
